A study of Mus musculus with 20 samples.

Results

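The cornified envelope is the protein and lipid shell that replaces the plasma membrane of terminally differentiating cells in stratified epithelia such as the epidermis, oesophagus and oral mucosa. In textbook accounts, envoplakin (Evpl) and periplakin (Ppl) are laid down first under the membrane next to desmosomes, and transglutaminases such as Tgm1 then cross-link small proline-rich (Sprr) proteins and other precursors onto this scaffold. The colon is lined by a simple epithelium that does not cornify, although Sprr genes are also known to be induced in injured or inflamed intestinal epithelium. The genes described here were Cnfn (cornifelin, an envelope protein), the small proline-rich genes Sprr1a, Sprr1b, Sprr2a1, Sprr2a2 and Sprr2a3, the cross-linking enzyme Tgm1, the plakins Evpl and Ppl, and Dsc2 (desmocollin 2, a cadherin of desmosomes).

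These 10 genes were taken by symbol from the deposited table, repeated transcript lines were dropped, and transcripts were summed per symbol. They were 10 of 35240 symbols and 22 of 113193 transcripts, and 9 of the 10 had a mean value of at least 1, the level asked of a gene before testing. Their levels over the days after passage were among the results known when they were chosen, so the course over days is described without a test. They had been proposed as a group that is high early after passage, and the values went against that name for most of them. Of the 9 genes with a mean of at least 1, only Cnfn, Tgm1 and Ppl were lower late than early in all 4 mice. The 3 Sprr2a genes and Dsc2 were higher late in all 4 mice, and Sprr1a and Evpl differed between mice. They are therefore called cornified envelope genes here, with no statement on when they peak.

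Colonoids are organoids grown in a gel from crypts of the mouse colon. WT cultures and cultures from Tnfr2-/- mice, which carry a germline disruption of Tnfrsf1b (the gene for TNF receptor 2) in all cells, against C57BL/6 WT, were compared on 5 days after passage (DPP, days post-passage), namely days 1, 2, 3, 5 and then 7. WT and Tnfr2-/- crypt cultures had been passaged 5 times, filtered through a mesh and reseeded without being broken up to single cells, so all groups share these steps. The series held 20 libraries in 10 groups of 2, and each genotype came from 2 mice. Replicate numbers were taken to name the mouse, which makes the 5 libraries of a mouse repeated samples and not separate animals. Following the study, days 1 to 3 were taken as early and days 5 and 7 as late, which gave 12 early and 8 late libraries. Values are TPM (a transcript abundance corrected for length and depth) divided by a size factor for each library, called values below, and they summed to between 900655 and 1111080 per library. In the targeted gene, both Tnfr2-/- libraries were below both WT libraries on each of the 5 days, with Tnfrsf1b at 2.71 to 11.5 in Tnfr2-/- and 11.1 to 21.9 in WT. Its mean in Tnfr2-/- was 3.845 early and 8.741 late, beside 14.91 and 15.91 in WT. The study reports the transcript as absent from knockout colonoids by qPCR, another assay. The RNA was bulk RNA, so fewer cells of a type and less RNA per cell cannot be told apart. Markers of simple colonic epithelium (9 of 9 measured, among them Epcam, Krt8 and Vil1) summed to 11678 to 19771 per library. Of 4 markers of squamous basal cells, Trp63 and Krt5 had means below 1, while Krt14 and Krt15 had means of at least 1. Krt14 had a mean value of 1152, and the 4 markers summed to 289.4 to 2438 per library. Of 7 markers of squamous suprabasal cells 6 were in the table and 4 (Krt4, Krt10, Krt13 and Lor) had a mean of at least 1, with a summed level of 7.83 to 46.1, and Krt1 and Ivl (involucrin) had means below 1. All 9 fibroblast markers were also measured, with a summed level of 1211 to 8426, and the study describes fibroblasts beside epithelial cells in such cultures.

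The 3 Sprr2a genes lie on chromosome 3 within the epidermal differentiation complex, the cluster that also holds Sprr1a and Sprr1b. In GRCm38, the build named mm10 in the submitters' processing notes, Sprr2a1 spans chr3:92215799-92221911, Sprr2a2 spans chr3:92215920-92256724 and Sprr2a3 spans chr3:92285417-92291405, all on the plus strand. Sprr2a1 and Sprr2a2 overlap as annotated: the Sprr2a2 transcript that carried nearly all of its value starts with an exon at chr3:92215920-92215962, inside the first exon of Sprr2a1, and continues at chr3:92253886-92254564. Their coding sequences are shown because the results below turn on how reads are divided among them. The coding part of each is 252 bases long. Sprr2a1 and Sprr2a2 were identical over all 252 bases, and Sprr2a3 was 98.8% identical to them, with the 3 differing bases in capitals.
Sprr2a1 and Sprr2a2: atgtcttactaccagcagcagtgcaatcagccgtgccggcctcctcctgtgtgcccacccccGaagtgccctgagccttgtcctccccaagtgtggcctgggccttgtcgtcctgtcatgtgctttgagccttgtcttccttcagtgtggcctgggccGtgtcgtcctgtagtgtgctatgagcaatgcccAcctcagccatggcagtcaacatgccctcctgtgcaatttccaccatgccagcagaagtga
Sprr2a3: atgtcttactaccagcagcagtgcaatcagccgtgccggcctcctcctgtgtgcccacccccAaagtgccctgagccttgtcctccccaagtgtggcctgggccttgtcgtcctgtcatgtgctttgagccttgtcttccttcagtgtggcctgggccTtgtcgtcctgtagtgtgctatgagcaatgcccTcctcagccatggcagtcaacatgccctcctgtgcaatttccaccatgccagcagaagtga
Counted from 1 at the A of the start codon and with the Sprr2a1 base first, the differences were G63A, G159T and A192T, each at the last base of a codon. Pseudoalignment assigns reads by short words of 31 bases. Of the 652 such words of the transcript that carried 98.7% of the Sprr2a3 value, 226 occur in no transcript of Sprr2a1 or Sprr2a2. Of the 692 words of the 722-base transcript that carried 99.99% of the Sprr2a2 value, 0 were absent from the other copies, and for Sprr2a1 138 of 2973 were. Few reads could therefore tell Sprr2a1 from Sprr2a2 by sequence, whereas Sprr2a3 has more sequence of its own. Cnfn, Sprr1a, Sprr1b, Tgm1 and Evpl shared no word of 31 bases with any other gene among the 109294 transcripts of the table that had a sequence, and Ppl and Dsc2 shared few (98.7% and 99.9% of their words were their own).

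Levels per transcript length spanned several orders of magnitude. Over all 20 libraries, Sprr2a2 had a mean value of 21766 ± 11813 (SD, n = 20 libraries) and was the most abundant symbol of the whole table in the median library, with a rank of 1 to 14. Sprr2a3 followed at 2257 ± 1446 and Sprr2a1 at 628.6 ± 315.9, and the 3 copies together held 0.532% to 4.43% of the summed values of a library. Below them came Dsc2 at 110.9 ± 48.5, Sprr1a at 61.1 ± 30.5, Ppl at 38.5 ± 9.72, Tgm1 at 36.6 ± 24.0, Evpl at 15.2 ± 3.38 and Cnfn at 7.36 ± 11.0. Only Sprr2a2 against Sprr2a3, and Sprr2a1 against Dsc2, were neighbours in that order whose ranges of mean ± SD did not overlap. Few reads can tell Sprr2a1 from Sprr2a2, as given above, so the levels of both are as assigned and were not measured apart. Sprr1b was listed at 0 in 19 of 20 libraries and at 1.51 in the second Tnfr2-/- library at 2 DPP, so it was not tested. A value of 1 corresponded to a median of 1.03 estimated counts for transcripts of 450 to 850 bases, the length of those of Cnfn and Sprr1a. Low values of Cnfn thus rest on a few reads, and no difference at that level was detectable.

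**Figure D1:**
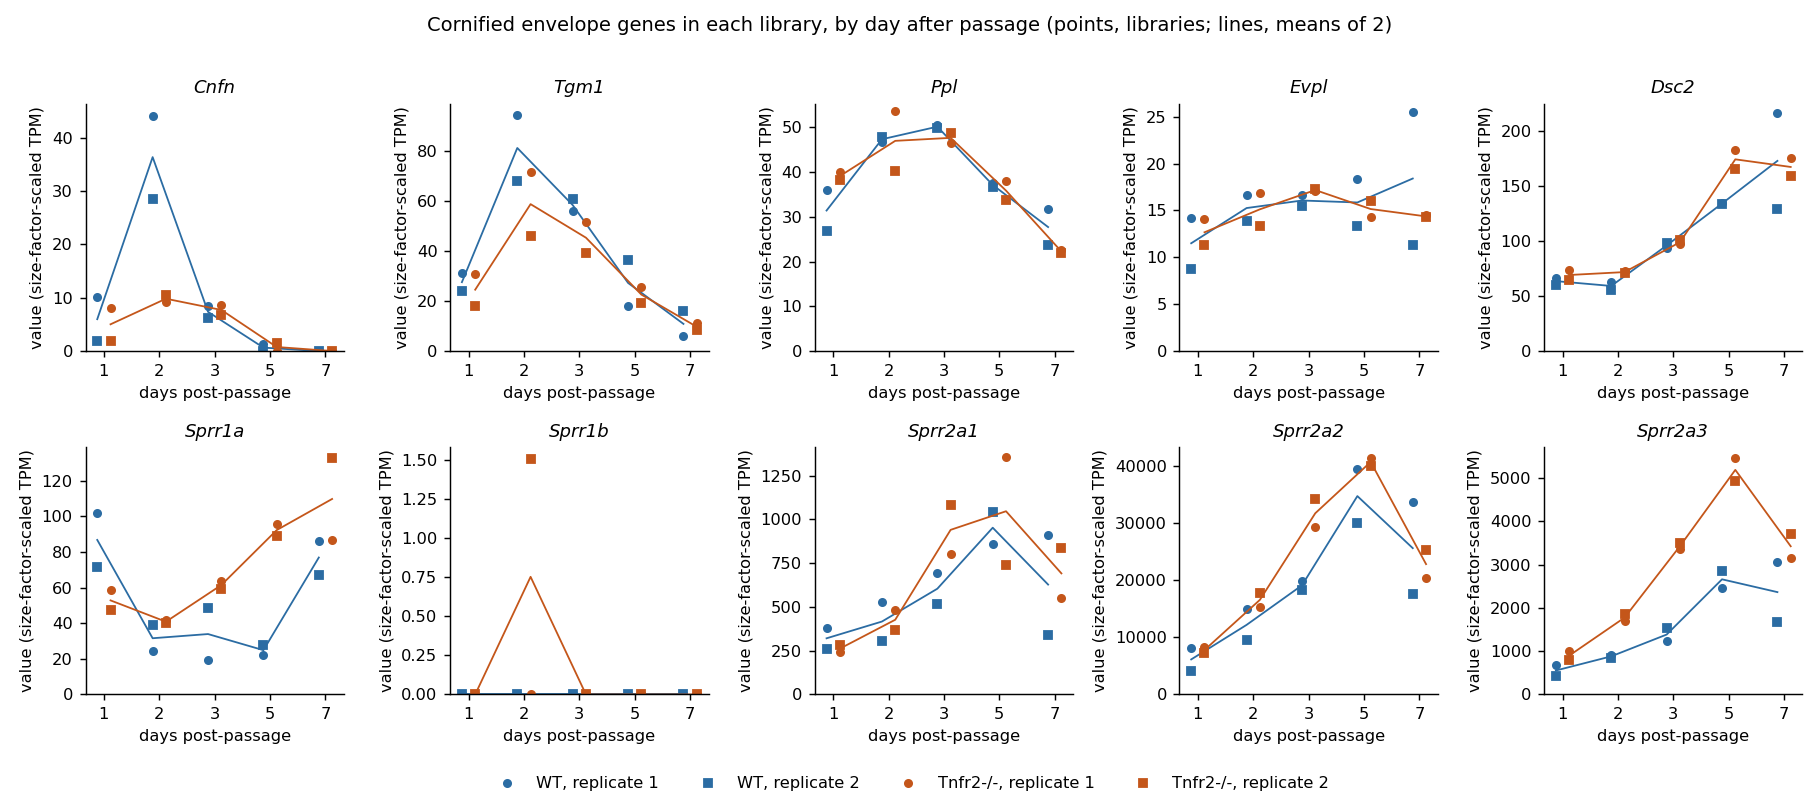
Value (TPM scaled by size factor, vertical axis) of the 10 cornified envelope genes in each library against days post-passage (horizontal axis, not to scale), for WT (blue) and Tnfr2-/- (orange); circles and squares are replicates 1 and 2 and lines join the means of 2 libraries. By these means, Cnfn and Tgm1 were highest at 2 DPP, Ppl at 3 DPP and the Sprr2a copies at 5 DPP. Sprr1b was at 0 in 19 of 20 libraries.

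The first comparison follows the genes over the days after passage, the study's sequence of colonoid growth. Cnfn had the steepest course. In WT, replicates 1 and 2 had 10.04 and 1.90 on day 1, 44.1 and 28.6 on day 2, and 8.50 and 6.2 on day 3. On day 5 they had 1.28 and 0, and on day 7 both were listed at 0. In Tnfr2-/- the values were 8.11 and 1.91 on day 1, 9.13 and 10.5 on day 2, 8.59 and 6.81 on day 3, 0 and 1.51 on day 5, and 0 in both libraries on day 7. All 12 early libraries were above all 8 late ones, a pattern that 1.17% of the 13539 genes tested showed. The margin, 1.896 at 1 DPP against 1.510 at 5 DPP, was less than what 1 read is worth, so the separation of these low libraries was not detectable at this depth, and the 2 WT libraries at 2 DPP stood above every other library.

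Tgm1, which encodes a membrane-bound transglutaminase that forms the cross-links of the envelope, also peaked at 2 DPP in both genotypes. Its WT libraries read 31.2 and 23.8 on day 1, 94.3 and 68.0 on day 2, 55.9 and 60.8 on day 3, 17.9 and 36.5 on day 5, and 5.87 and 15.8 on day 7. The Tnfr2-/- libraries read 30.97 and 18.1, 71.4 and 46.0, 51.5 and 39.1, 25.8 and 19.3, and 11.0 and 8.36 on the same days. Early and late libraries of Tgm1 overlapped, because the values at 1 DPP were as low as some at 5 DPP. Of its 6 transcripts in the table, the most abundant carried 73.3% of the value.

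Of the plakins, which link keratin filaments and desmosomes to the forming envelope, only Ppl was lower late in all 4 mice. Ppl had a mean of 35.2 on day 1, 47.1 on day 2, 48.9 on day 3, 36.5 on day 5 and 25.0 on day 7 over the 4 libraries of each day. Its late minus early difference on the log2(value + 1) scale lay between -0.64 and -0.34 in the 4 mice. Evpl, its partner in the same scaffold, had a mean of 12.1 at 1 DPP and 15.2 to 16.6 on the other days. Its difference had either sign, from -0.14 to 0.43, and in WT at 7 DPP the 2 libraries read 25.5 and 11.3.

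The Sprr2a genes and Dsc2 had the opposite order of early and late values. Values are corrected for length and the Sprr2a transcripts differ in length, so the summed value of the 3 copies also depends on how shared reads were divided. That sum was 9248 and 4795 in WT at 1 DPP and 42866 and 33910 at 5 DPP. In Tnfr2-/- it was 9595 and 8305 at 1 DPP and 48260 and 45736 at 5 DPP. At 7 DPP it was 37709 and 19572 in WT and 24039 and 29894 in Tnfr2-/-, below the 5 DPP value of the same mouse in all 4 mice. The late mean was 35248 against an early mean of 17587, or 2.00-fold, and the early and late libraries overlapped.

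Dsc2, a desmosomal cadherin of the intestinal epithelium as well as of stratified epithelia, had 55.4 to 100.7 in the 12 early libraries (median 71.9) and 129.4 to 217.0 in the 8 late ones (median 162.7). All late libraries were above all early ones, as for 1.43% of genes tested. Sprr1a had no common course. In WT its mean was highest at 1 DPP (libraries at 101.8 and 71.6) and lowest at 5 DPP (22.1 and 27.6), with 86.4 and 67.3 at 7 DPP. The lowest single WT library was replicate 1 at 3 DPP (19.1). In Tnfr2-/- Sprr1a lay between 39.9 and 63.6 early and between 86.4 and 132.9 late.

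Among the 9 genes with a mean of at least 1, 3 were lower late in all 4 mice, against 20.1% of all genes tested, and 4 were higher late in all 4 mice, against 23.7%. Averaged over mice, the late minus early difference on the log2(value + 1) scale was -2.96 for Cnfn, -1.48 for Tgm1 and -0.51 for Ppl. It was 0.80 for Sprr2a1, 1.08 for Dsc2, 1.17 for Sprr2a2 and 1.38 for Sprr2a3. The value for Cnfn depends on the pseudocount, since 6 of its 8 late libraries were at 0. It was -5.43 with a pseudocount of 0.1 and -1.44 with a pseudocount of 5. Over the 20 libraries, which share mice and days, Pearson's r on that scale was 0.83 between Cnfn and Tgm1, 0.83 between Tgm1 and Ppl and -0.80 between Cnfn and Dsc2, and it was 0.83 to 0.93 among the 3 Sprr2a copies, as a description only.

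**Figure D2:**
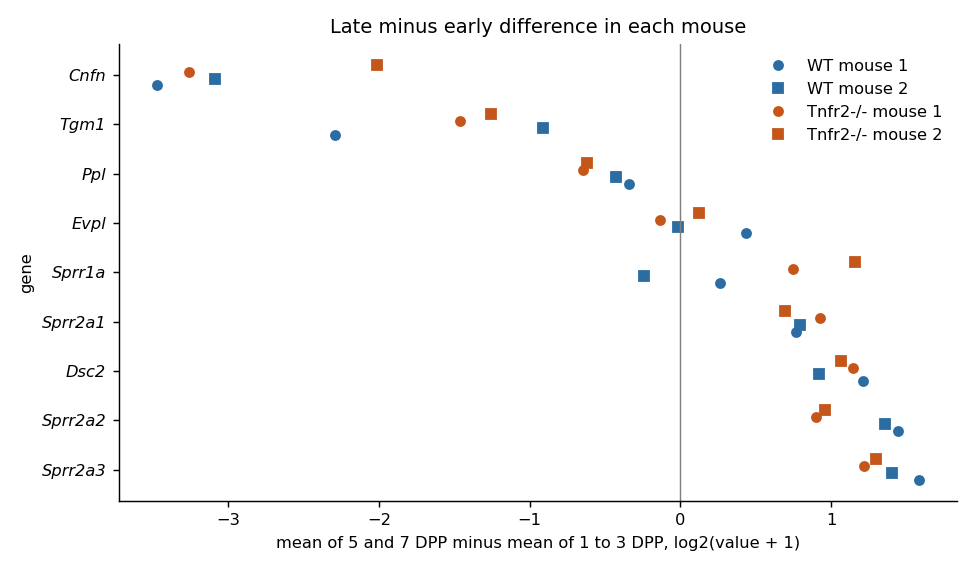
Difference between the mean of the late libraries (5 and 7 DPP) and the mean of the early libraries (1 to 3 DPP) on the log2(value + 1) scale (horizontal axis) in each of 4 mice, for the 9 genes with a mean of at least 1 (vertical axis); blue is WT, orange is Tnfr2-/-, and circles and squares are mice 1 and 2. Cnfn, Tgm1 and Ppl lay left of 0 in all 4 mice, Evpl and Sprr1a had mice on both sides, and the Sprr2a copies and Dsc2 lay right of 0 in all 4.

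The second comparison asked whether loss of TNFR2 changed these genes. In a limma fit across all 13539 genes tested, with day as a factor and Benjamini-Hochberg adjustment over all of them, 1 of the 9 genes, Sprr2a3, was called at an adjusted p under 0.05 over all days, against 7.60% of genes tested (4.51% higher and 3.09% lower in Tnfr2-/-). At 1 to 3 DPP it was again Sprr2a3 alone, against 1.20% (0.768% higher and 0.428% lower). At 5 and 7 DPP 2 genes were called, Sprr2a3 and Sprr1a, against 6.45% (3.80% higher and 2.64% lower). All of these were higher in Tnfr2-/-. The median log2 difference of the 9 genes over all days was 0.16, beside -0.03 for all genes tested.

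Sprr2a3 was higher in both Tnfr2-/- libraries than in both WT libraries on each of the 5 days, which 0.997% of genes showed. Tnfr2-/- had 997.2 and 798.6 on day 1, 1699 and 1854 on day 2, 3352 and 3505 on day 3, 5461 and 4924 on day 5, and 3153 and 3700 on day 7. WT had 676.0 and 432.8, 914.0 and 849.6, 1235 and 1536, 2471 and 2854, and 3052 and 1681 on the same days. The log2 difference was 0.92 over all days (SE 0.12, limma adjusted p = 1.14e-04), 1.01 early (SE 0.14, limma adjusted p = 0.00333) and 0.78 late (SE 0.18, limma adjusted p = 0.0212). With the means of 2 mice against 2 in place of libraries, the differences were the same and the limma adjusted p rose to 0.119 over all days, 0.119 early and 0.233 late, so that no call was left. In that fit 7 of 13539 genes were called over all days, 3 early and 0 late, where 1896 genes had an unadjusted p under 0.05. The late call was lost when any 1 of 5 of the 8 late libraries was left out (limma adjusted p between 0.0513 and 0.0898). Over all days the call was kept when any 1 of the 20 libraries was left out, at a log2 difference of 0.870 to 1.005. Without either Tnfr2-/- mouse, which leaves 1 library in each Tnfr2-/- group, the early and late calls were lost. With any 1 of the 4 mice left out, the log2 difference was 0.81 to 1.03 over all days, 0.94 to 1.09 early and 0.62 to 0.94 late.

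The share of the summed value that was assigned to Sprr2a3 also lay apart between genotypes. Sprr2a3 held 7.40% ± 1.29 (SD, n = 10 libraries of 2 mice) of the 3-copy sum in WT and 10.6% ± 1.35 in Tnfr2-/-. The highest WT share was 9.026% and the lowest Tnfr2-/- share was 9.027%, so the libraries of the genotypes did not overlap but touched. The means of the 2 mice were 6.48% and 8.31% in WT and 10.9% and 10.2% in Tnfr2-/-. The sum itself differed by 0.40 on the log2 scale over all days (SE 0.14, limma adjusted p = 0.0983), 0.57 early (SE 0.18, limma adjusted p = 0.193) and 0.14 late (SE 0.23, limma adjusted p = 0.757), and none of these passed the threshold. Sprr2a2, with the largest share, differed by 0.35 over all days (SE 0.15, limma adjusted p = 0.159), and Sprr2a1 by 0.16 (SE 0.18, limma adjusted p = 0.657). Sprr2a2 was called over all days without the WT mouse of replicate 1 (log2 difference 0.66, limma adjusted p = 0.00165) or without its 7 DPP library alone (0.45, limma adjusted p = 0.0323), and early without that mouse (0.84, limma adjusted p = 0.0104). Without the WT mouse of replicate 2 its difference was 0.04 over all days (limma adjusted p = 0.864) and 0.25 early (limma adjusted p = 0.217), so its size depended on the WT mouse left out. The share itself was not tested.

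**Figure D3:**
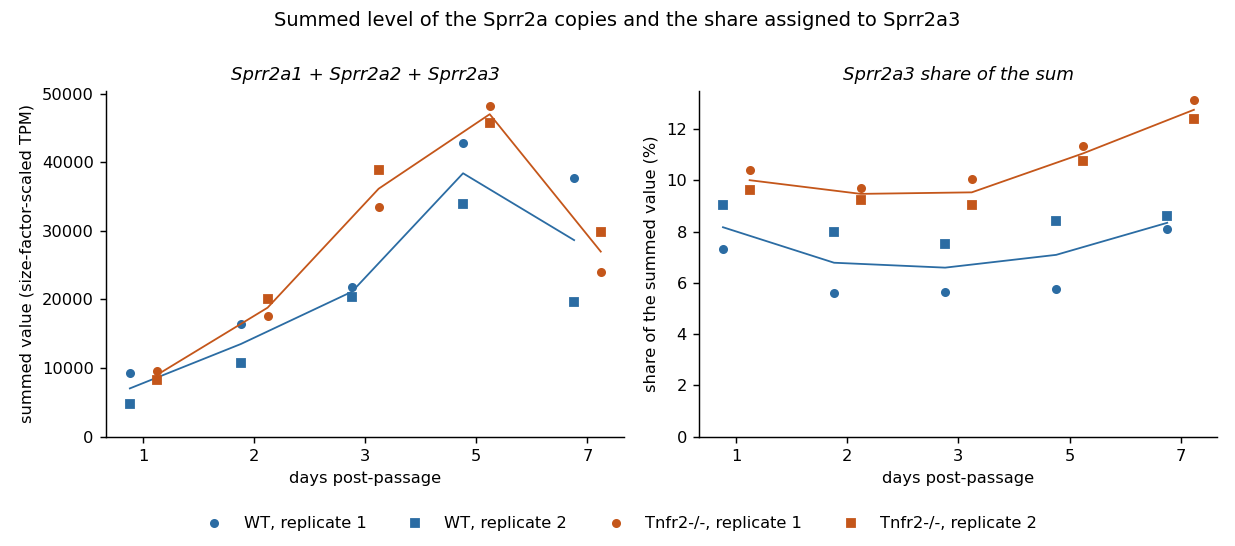
Left, summed value of Sprr2a1, Sprr2a2 and Sprr2a3 (TPM scaled by size factor) and right, share of that sum assigned to Sprr2a3 (%), in each library against days post-passage (horizontal axes, not to scale); blue is WT, orange is Tnfr2-/-, circles and squares are replicates 1 and 2, and lines join means of 2 libraries. The sums of the genotypes overlapped at 1 and 7 DPP, and their difference was not called in any phase. The Sprr2a3 share, which was not tested, was 5.59% to 9.026% in WT and 9.027% to 13.1% in Tnfr2-/-.

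Sprr1a differed between genotypes at 5 and 7 DPP. The WT libraries read 22.1 and 27.6 at 5 DPP and 86.4 and 67.3 at 7 DPP, and the Tnfr2-/- libraries 95.5 and 88.9 at 5 DPP and 86.4 and 132.9 at 7 DPP. All 4 late Tnfr2-/- libraries were above all 4 late WT libraries, as for 5.35% of genes, but at 7 DPP the margin was narrow (86.41 against 86.36). The log2 difference was 1.17 late (SE 0.25, limma adjusted p = 0.0166) and 0.23 early (SE 0.20, limma adjusted p = 0.708). The change of the difference between phases was 0.94 (SE 0.32, limma adjusted p = 0.279), so a phase dependence was not shown. On mouse means, where limma called 0 genes late, the late difference had a limma adjusted p of 0.182, and the call was also lost without any 1 of 4 late libraries, 3 of them Tnfr2-/- (limma adjusted p between 0.0505 and 0.0736) or without either Tnfr2-/- mouse (0.234 and 0.336).

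The summed level of the 9 fibroblast markers moved with the same late groups. It was 1211 to 3999 in WT and 3685 to 8426 in Tnfr2-/- at 5 and 7 DPP, beside 2081 to 4276 and 3129 to 4658 at 1 to 3 DPP. Its part in the Sprr1a and Sprr2a3 differences was not tested. The 5 goblet markers summed to 110.9 to 1325 in late WT and 53.3 to 176.1 in late Tnfr2-/- libraries, and the 5 absorptive markers to 134.7 to 831.0 and 13.4 to 23.7. Early, the goblet markers summed to 2.75 to 349.2 in WT and 3.31 to 18.3 in Tnfr2-/-, and the absorptive markers to 3.998 to 289.2 and 1.80 to 17.1. The part of both lists was likewise not tested. The 6 squamous suprabasal markers summed to 7.83 to 17.5 in late WT and 20.3 to 46.1 in late Tnfr2-/- libraries. These ranges did not overlap, a separation in that direction that 5.35% of single genes showed. Early, the sums were 11.8 to 35.4 in WT and 10.6 to 42.3 in Tnfr2-/-. Krt13 was 3.13 of the late sum in WT and 23.6 in Tnfr2-/- on average. Lor, in the same sum, had a lower mean in Tnfr2-/- over all days. The part of these markers in the Sprr1a and Sprr2a3 differences was not tested.

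None of the other 7 tested genes passed the threshold in any phase. For Cnfn the early means were 16.6 ± 16.3 (SD, n = 6 libraries) in WT and 7.51 ± 2.99 in Tnfr2-/-, with a log2 difference of -0.61 (SE 0.38, limma adjusted p = 0.551). The gap lay at 2 DPP, where 44.1 and 28.6 in WT stood beside 9.13 and 10.5 in Tnfr2-/-, while the values at 1 and 3 DPP overlapped. Tgm1 had early means of 55.7 ± 25.6 and 42.8 ± 18.3 and a difference of -0.35 (SE 0.24, limma adjusted p = 0.609). Over all days, the differences of Evpl, Ppl and Dsc2 were -0.01 (SE 0.13), -0.02 (SE 0.09) and 0.16 (SE 0.08), with limma adjusted p of 0.979, 0.904 and 0.253. Dsc2 was called without the WT library of replicate 1 at 7 DPP, which held its highest value (217.0), at a log2 difference of 0.23 over all days (limma adjusted p = 0.0312) and 0.37 late (limma adjusted p = 0.0479). Without the WT library of replicate 2 at 7 DPP its difference was 0.12 over all days (limma adjusted p = 0.400) and 7.63e-04 late (limma adjusted p = 1.000). In the test of whether the genotype difference changed from early to late, 0 of 9 genes were called, against 0.148% of genes tested (0.118% with a higher and 0.0295% with a lower difference late), and only Sprr1a had an unadjusted p under 0.05. That contrast is independent of the course averaged over both genotypes, although the WT course was among the results known when the genes were chosen.

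**Figure D4:**
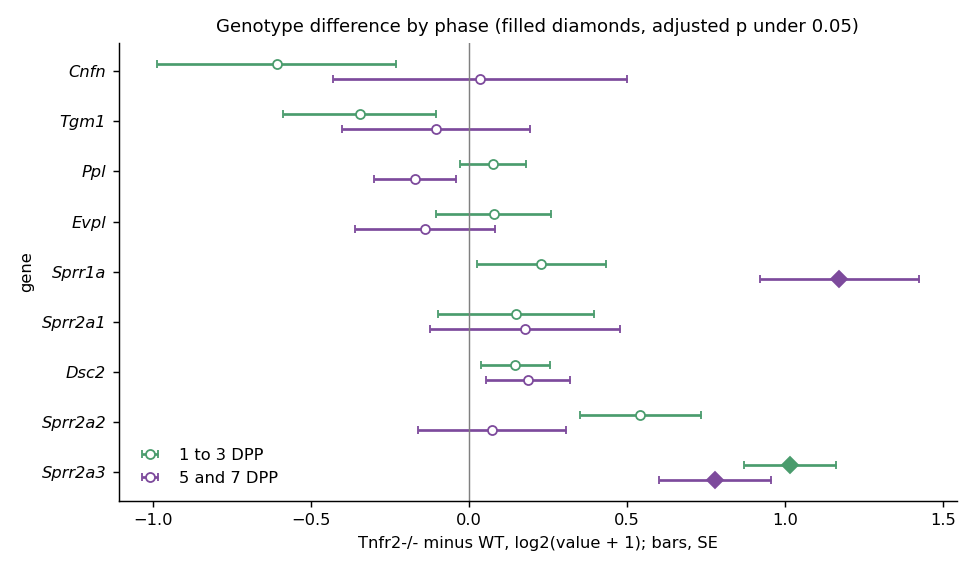
Genotype difference (Tnfr2-/- minus WT, log2(value + 1), horizontal axis) of the 9 tested genes (vertical axis) at 1 to 3 DPP (green) and at 5 and 7 DPP (purple), with bars of 1 SE from the limma fit; filled diamonds are adjusted p under 0.05. Sprr2a3 was past the threshold in both phases (1.01 and 0.78) and Sprr1a late (1.17), and the other points were not.

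The upstream sequences of Sprr1a and its paralogue Sprr1b are shown because Sprr1a was above 0 in every library and Sprr1b was not. They were searched on both strands for TGANTCA, which includes TGAGTCA, the textbook site of AP-1 transcription factors. The 250 bases before the RefSeq start of Sprr1a (GRCm38.p6, chr3:92485882-92486131, minus strand, printed from 5′ to 3′ along the gene) hold TGAGTCA at 2 places, in capitals, that begin 146 and 116 bases before the start.
Sprr1a: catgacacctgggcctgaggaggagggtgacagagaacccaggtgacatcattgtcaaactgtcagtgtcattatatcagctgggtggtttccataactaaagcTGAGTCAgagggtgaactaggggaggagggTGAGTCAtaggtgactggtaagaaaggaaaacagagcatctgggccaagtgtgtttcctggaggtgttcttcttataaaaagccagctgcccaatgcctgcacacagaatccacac
The same window of Sprr1b (chr3:92438780-92439029, minus strand), the paralogue at 0 in 19 of 20 libraries, has TGAATCA once, 111 bases before the start.
Sprr1b: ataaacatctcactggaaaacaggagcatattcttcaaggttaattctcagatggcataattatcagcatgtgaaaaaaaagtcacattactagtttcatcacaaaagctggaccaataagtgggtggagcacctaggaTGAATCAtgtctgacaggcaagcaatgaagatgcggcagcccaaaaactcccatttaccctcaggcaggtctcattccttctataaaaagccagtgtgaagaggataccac
TGAGTCA on either strand was found in 5.20% of 32851 RefSeq windows of the same length (250 bases before to 50 after a start), and TGANTCA, which includes it, in 7.81%. No TGANTCA was in the windows of Cnfn, Tgm1, Sprr2a1, Sprr2a2 or Sprr2a3, and the windows of Sprr2a1 and Sprr2a2 were identical over all 300 bases. The windows of Sprr2a2 (chr3:92250397-92250696) and Sprr2a3 (chr3:92285054-92285353) do not lie directly before the starts of the transcripts that carried 99.99% and 98.7% of their values (92215920 and 92288566). The Sprr2a1 window (chr3:92215585-92215884) lies just before that start of Sprr2a2, whereas no window searched lies just before that start of Sprr2a3. Windows were given for 7 of the 10 genes. A match is a description of letters and not of binding.

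Of 138 other genes of cornification, desmosomes, squamous keratins and their regulators, chosen by list, 135 were in the table and 67 had a mean of at least 1. Over all days 6 of the 67 were higher and 2 lower in Tnfr2-/-, against 4.51% and 3.09% of all genes tested. Early 1 was higher and 1 lower, against 0.768% and 0.428%, and late 5 were higher and 1 lower, against 3.80% and 2.64%. All of these calls treat the libraries of a mouse as independent, and on mouse means, 2 against 2, 0 of the 8 genes called over all days, 0 of the 2 early and 0 of the 6 late were left (limma adjusted p between 0.123 and 0.518). When libraries of 1 mouse were allowed to correlate, 5, 1 and 6 of them were left, without Elf3, Fosl1 and Krt13 over all days and Jun early. Among 22 tested regulators of squamous differentiation, 4 were higher over all days and 0 lower, against the same 4.51% and 3.09%. These were the AP-1 subunits Fosl1 (34.8 in WT and 44.9 in Tnfr2-/-, limma adjusted p = 0.0474), Jun (41.2 and 58.5, limma adjusted p = 7.83e-04) and Junb (131.3 and 179.6, limma adjusted p = 0.0106), and the epithelial factor Elf3 (127.7 and 173.5, limma adjusted p = 0.0454). At 5 and 7 DPP Fosl1 was 18.0 ± 3.67 in WT and 41.6 ± 9.33 in Tnfr2-/- (SD, n = 4 libraries), a log2 difference of 1.16 (SE 0.15, limma adjusted p = 9.30e-04). Jun and Junb also differed late, by 0.52 and 0.63. The other AP-1 genes of the list, Fos, Fosb, Fosl2 and Jund, were not called in any phase, and Jund, with the highest mean of the list, was at 143.7 in WT and 170.9 in Tnfr2-/- (limma adjusted p = 0.273 over all days).

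Among 10 tested keratins of stratified epithelia, only Krt13, a keratin of non-cornifying squamous epithelia, was called, and it was higher in Tnfr2-/- (late 23.6 ± 11.0 against 3.13 ± 2.23, SD, n = 4 libraries, limma adjusted p = 0.00801). Krt14 had 804.1 and 808.4 late and was not called. Of 10 tested proteases, lipid barrier and secreted genes, the cornification caspase Casp14 was lower over all days (3.64 in WT and 0.557 in Tnfr2-/-, limma adjusted p = 0.0206), as was the kallikrein Klk6 (8.97 and 2.22, limma adjusted p = 0.00129). The membrane serine protease Tmprss11d was higher late (8.48 ± 4.35 against 1.58 ± 1.23, SD, n = 4 libraries, limma adjusted p = 0.00163). Of 4 tested transglutaminases and cystatins, the protease inhibitor Cstb was higher over all days (403.6 against 297.8, limma adjusted p = 0.0148), and the widely expressed transglutaminase Tgm2 was not called (46.3 against 41.0, limma adjusted p = 0.780).

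The nearest partners of the envelope genes showed no called difference. Of 10 tested desmosome genes besides Dsc2, 0 were called in any phase by limma. The desmosomal plaque proteins Dsp (237.1 in WT and 223.0 in Tnfr2-/-) and Jup (202.7 and 193.6) and the membrane protein Perp (226.4 and 232.8) were the most abundant, and Dsg3 (14.2 and 23.1) had an unadjusted p of 0.0104 over all days and 0.00325 late (limma adjusted p = 0.0502), the only desmosome gene with an unadjusted p under 0.05. The 4 other plakins Dst, Plec, Macf1 and Eppk1 and the 5 tested genes of the epidermal differentiation complex outside the Sprr family, among them the loricrin gene Lor (4.39 and 3.40), were not called either, and Dst had an unadjusted p of 0.0219 late. Of the other Sprr genes, Sprr2b (3.87 and 6.10) and Sprr2h (9.61 and 3.49) had a mean of at least 1, and neither was called, with an unadjusted p of 0.0371 for Sprr2b over all days. Of the 35 listed genes of that complex outside the Sprr family, 34 were in the table and 14 were listed at 0 in every library.

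The genes most like Cnfn, Sprr1a and the Sprr2a sum were found by Pearson's r over the 10 group means on the log2 scale, among 10645 genes with a mean of at least 5. For Cnfn they were Nip7 (r = 0.96), Nap1l1, Trnt1, Nudcd2 and Polr2e. For Sprr1a they were Prdx5 (0.94), Tnfaip3, Gpsm1, Prss12 and Gem. For the Sprr2a sum they were Gm6472 (0.98), Emp2, Sh3bgrl2, Eef1a1 and Zbtb7a. These are descriptions over 10 points that share mice and days.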

How the data were processed

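Total RNA of WT and Tnfr2-/- colonoids at 5 days was sequenced as stranded mRNA libraries with single 75-base reads, per the labels. The submitters' processing notes name CASAVA, kallisto, sleuth and the build mm10. The authors pseudoaligned reads and estimated TPM per transcript, and the deposited signal of each library is TPM divided by a size factor, as judged from its sums. The deposited table also holds the authors' mean natural log of estimated counts, used here only to relate a value to counts, and their p-values, q-values, test statistics and variances, which were not used. The study states only an approximate read number common to all samples, and the depth of each library is not in the table, so no counting intervals are given.

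The table had 113974 lines, of which 781 repeated a transcript and were dropped, and 199 transcripts had no gene. Values were summed per symbol, as log2(value + 1), for 13539 genes with a mean of at least 1, and a fold change on that scale understates the change of low genes. Genotype was tested with limma 3.58.1 (trend) in R 4.3.3, over all days with day as a factor, and at 1 to 3 DPP, at 5 and 7 DPP and between phases from 10 group means. Called means a Benjamini-Hochberg adjusted p under 0.05 over all genes. Libraries of 1 mouse were treated as independent, which can make p-values too small, so fits with the mouse as a block and on mouse means were also made.

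Replicate numbers did not pair the genotypes: same-numbered WT and Tnfr2-/- libraries of a day deviated with r between -0.05 and 0.08. Between days, the deviations by replicate number had r of 0.10 to 0.31 in WT and -0.05 to 0.08 in Tnfr2-/-. In Tnfr2-/- the values therefore did not show that the number marks a mouse, and all results by mouse rest on that reading. The genes and lists were chosen with earlier results of these data known. Named genes were the 10 members, list genes with a mean of at least 1 called in a genotype contrast, up to 4 of highest mean in a list, and the 5 most similar profiles of Cnfn, Sprr1a and the Sprr2a sum. Dsg3, Dst, Lor, Ivl and the suprabasal keratins were named after their values were seen. Alternatives covered pseudocount, filter, scaling, spread model, blocks, summing and leaving out libraries or mice. Transcript models were GENCODE vM21 (GRCm38), with 109294 of 113193 transcripts matched by versioned ID, and promoters were RefSeq (GRCm38.p6).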

Additional observations from a re-analysis of the deposited data

Results flagged for a closer look

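Within the 4 pools of libraries compared (early and late of each genotype), 40 sets of values of the tested genes and the Sprr2a sum were checked for a library far from the others by Dixon's gap test, which flags about 1 in 20 sets by chance, and 5 were marked. Cnfn in the WT library of replicate 1 at 5 DPP (1.281) and in the Tnfr2-/- library of replicate 2 at 5 DPP (1.510) stood above 3 libraries at 0 each. Beside 3 values of 0, any value above 0 is marked whatever its size, so the rate of 1 in 20 does not hold for these sets. Evpl in the WT library of replicate 2 at 1 DPP (8.769) lay below the other early WT libraries, of which the nearest was 13.91. Evpl in the Tnfr2-/- library of replicate 2 at 5 DPP (15.95) lay above the other late Tnfr2-/- libraries, of which the nearest was 14.46. Dsc2 in the WT library of replicate 1 at 7 DPP (217.0) lay above the other late WT libraries, of which the nearest was 135.1. The pools mix days, and the Dsc2 genotype difference was called without that library, as given above.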

How the results depend on the processing

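The genotype differences of the cornified envelope genes were recomputed under each alternative, 1340 values in all. Of these, 1315 kept their side of the threshold, 20 lost and 5 gained a call, and 0 called values changed sign. In 61 the sign of a difference that was called in neither fit changed. The replicate block of the mouse and the replicate number as a factor left the number of genes called at 1 over all days, 1 early, 2 late and 0 for the change between phases, and changed no call of these genes. On mouse means, 2 against 2, 0 genes were called over all days, early and late. With the Sprr2a copies summed, 0 were called over all days and early and 1, Sprr1a, late, also with the replicate block added after the data were seen. On mouse means of the summed copies the count was 0. The cause of these losses was not tested, apart from Sprr2a3 no longer being a feature where copies are summed. Leaving out 1 library or 1 mouse gave 1 to 3 genes over all days, 0 to 2 early, 0 to 3 late and 0 for the change between phases. Early and late, 0 were called without either Tnfr2-/- mouse. The number of genes lower late in the course was 3, and 5 in the WT mouse of replicate 2 alone, where Sprr1a and Evpl also had a negative difference. Without a filter on low values 22550 genes were tested, and 55 were called for the change between phases, against 10 with a pseudocount of 0.1. Over the whole table the fits called 1029 genes over all days, 162 early, 873 late and 20 for the change between phases. These counts were 545, 110, 743 and 47 with the mouse as a replicate block, 1222, 280, 1242 and 96 with the number as a factor, and 7, 3, 0 and 1 on mouse means, where 1896 genes had an unadjusted p under 0.05 late.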
